A study of Mus musculus with 6 samples.

Results

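Genes of fibroblast growth factor (FGF) signalling were examined in mouse hindlimb buds homozygous for a mutant allele of Pitx1, which encodes a homeodomain protein that marks the hindlimb. The set held 10 genes, chosen by name: the ligand Fgf10, the receptors Fgfr1, Fgfr2 and Fgfr3, the inhibitors Spry1, Spry2, Spry4 and Dusp6, and the response factors Etv4 and Etv5. On the array these 10 of 16593 genes had 19 of 25697 probes. RNA came from E12.5 hindlimb buds of the strain labelled SV129. The 3 knockout samples carried the genotype PITX1-/- and the 3 wild-type samples PITX1+/+, and both came from matings of Pitx1+/- mice. Each sample was hybridised to 1 Illumina bead array, which gave an intensity in arbitrary array units that could lie below 0. The labels neither describe the mutant allele nor state whether embryos were pooled, and nothing says that the samples came from separate animals, so p-values measure the spread between these samples only.

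FGFs bind receptor tyrosine kinases together with heparan sulfate and activate the Ras and ERK kinase cascade. In the limb bud, Fgf10 from the mesenchyme signals to the overlying ectoderm, and the apical ectodermal ridge answers with Fgf8 and related ligands that act back on the mesenchyme. Cells that receive the signal raise Etv4, Etv5, Dusp6 and Sprouty genes, and the last 2 groups dampen the pathway.

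No gene of the set passed the test in knockout hindlimb buds. Of its 19 probes, 12 were bright enough to test, and they stood for 8 genes. In limma, with Benjamini-Hochberg adjustment over the 13715 probes tested, 0 of the 12 had an adjusted p under 0.05 and 0 had an unadjusted p under 0.05, and the lowest adjusted p was 0.71. Of all probes tested, 0.219% passed the adjusted threshold and 8.04% had an unadjusted p under 0.05. With 1 probe per gene, 4 of the 8 genes had a log2 fold change (knockout minus wild type) above 0 and 4 below 0. Their median was 0.00, as was that of all 9535 genes tested. The folds ran from -0.17 for Dusp6 to 0.23 for Etv4. They are on the scale of log2 of background-corrected intensity plus 50, which understates the change of dim probes. A probe counted as above background at 14.3 units, and the test took probes that reached this level on 3 or more of the 6 arrays.

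Pitx1 itself fell in knockout, with 78.3, 75.2 and 76.1 units in knockout replicates 1 to 3, against 154.0, 124.5 and 140.2 units in wild type. All knockout arrays lay below all wild-type arrays (log2 fold change -0.51 ± 0.09 SE, adjusted p = 0.038, limma). Markers of other cell types were summed on each array. Of 14 skeletal muscle markers tested, 8 fell and 0 rose at an adjusted p under 0.05 in limma, and 13 had p under 0.05 before adjustment. Their summed level was 2569 to 8836 units in knockout and 15809 to 19777 in wild type, with the lowest value in knockout replicate 3. Of 7 cartilage markers tested, 1 fell by the same threshold (Matn4), and 2 had p under 0.05 before adjustment (Matn4 and Matn1, limma). Matn1 gave 8.1, 19.1 and 9.0 units in knockout and 41.3, 25.5 and 66.9 in wild type. The summed level of the 8 on the array was 1573 to 2837 units in knockout and 2881 to 4389 in wild type. Matn4 alone gave 122.6 to 355.6 units in knockout and 722.3 to 1303.3 in wild type. Col2a1, the brightest of the 8, overlapped between genotypes, at 1207 to 2139 units in knockout and 1726 to 2535 in wild type. The separated sums thus do not stand for a fall of every cartilage marker. Of 8 limb ectoderm markers, 0 passed by limma, also without adjustment, with summed levels of 9463 to 10673 units in knockout and 7745 to 12587 in wild type. In limma, 0 of 6 erythroid markers tested passed, while 4 had p under 0.05 before adjustment, all 4 with every knockout array above every wild-type array: Klf1 (log2 fold change 0.51), Alas2 (0.46), Slc4a1 (0.41) and Hba-x (0.26). Of all 9535 genes tested, 8.5% had p under 0.05 before adjustment in limma, and 620 had every knockout array above every wild-type array. The mean log2 level of all 6 erythroid markers tested was set against the wild-type mean. It stood at 0.19, 0.30 and 0.31 in knockout replicates 1 to 3 and at -0.03, -0.03 and 0.06 in wild-type replicates 1 to 3. Of 9 limb mesenchyme markers, all were above background on all 6 arrays, with summed levels of 8835 to 10393 units in knockout and 9698 to 10162 in wild type. In limma none of the 9 passed, while 3 had p under 0.05 before adjustment, namely Prrx1 (log2 fold change 0.28), Lhx2 (0.25) and Tbx4 (-0.51). No endothelial (5 tested) or macrophage (3 tested) marker passed by limma, with or without adjustment. The part of these cell types in the values below was not tested. In whole buds, fewer cells of a type and less RNA per cell cannot be told apart. Knockout replicate 3 lay far from the rest, at 22.3 on the first principal component (44.2% of the variance), where the others lay between -8.86 and 1.38.

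**Figure D1:**
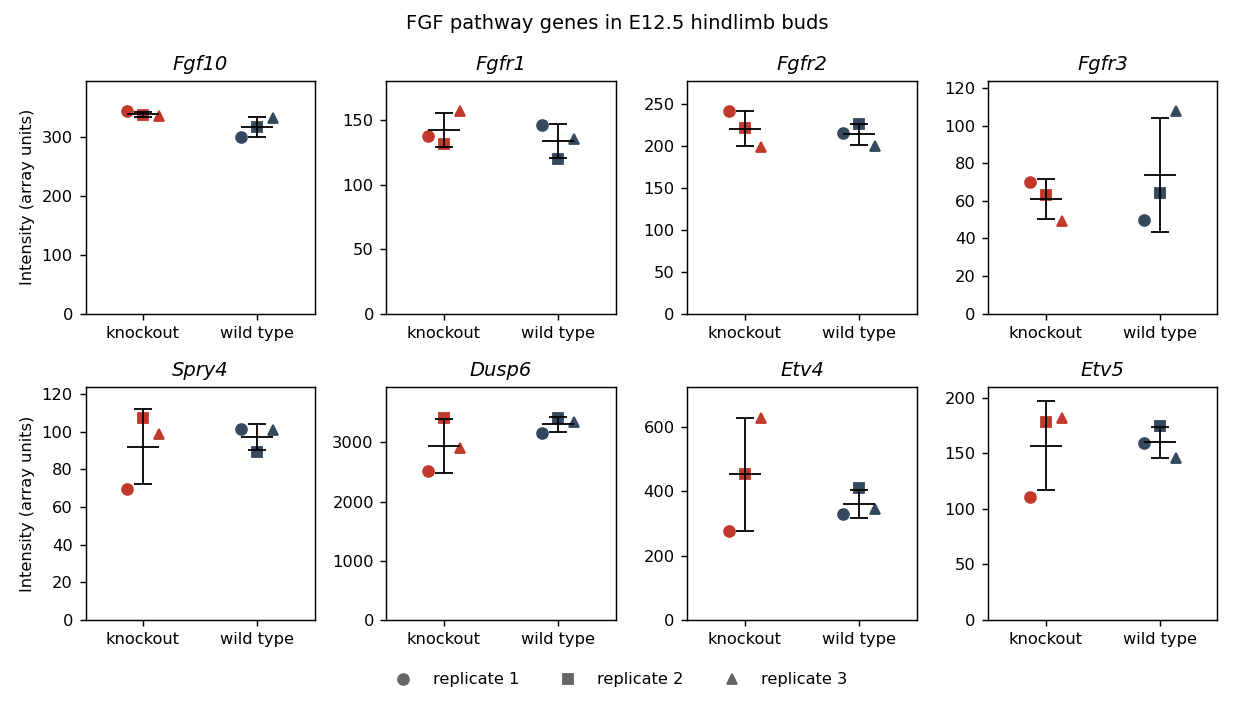
Intensity (array units, linear axis from 0) of the 8 testable FGF genes, 1 probe each, in the 3 knockout and the 3 wild-type samples; symbols mark replicate numbers and bars give mean ± SD. The genotypes overlap for every gene but Fgf10, and the knockout values of Etv4 run from 275.8 to 629.3 units, beyond its wild-type values on both sides.

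The ligand Fgf10 is the mesenchymal signal without which limb buds do not grow out. Its brightest probe gave 342.7, 336.7 and 334.8 units in knockout replicates 1 to 3, against 298.7, 316.6 and 332.3 units in wild-type replicates 1 to 3. Every knockout value lay above every wild-type value, and the closest pair was replicate 3 of each genotype. This was the only 1 of the 12 probes without overlap, which was seen for 6.63% of all probes tested with knockout above and for 13.2% in either direction. The log2 fold change was 0.08 ± 0.09 (SE, adjusted p = 0.83, limma), with a 95% interval of -0.11 to 0.27. The second probe gave 269.0, 335.3 and 327.8 units in knockout and 295.9, 262.7 and 265.1 in wild type. There the genotypes overlapped, since knockout replicate 1 lay below wild-type replicate 1 (log2 fold change 0.14 ± 0.10 SE, adjusted p = 0.74). The third probe was dim, at 43.6, 40.4 and 9.4 units in knockout and 29.4, 13.8 and 42.9 in wild type, and lay above background on 4 of the 6 arrays. All 3 probes had a fold above 0, and none of them passed.

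FGF receptor genes encode the tyrosine kinases through which these ligands act. Fgfr1, the main receptor of limb mesenchyme, gave 138.1, 131.3 and 156.8 units in knockout and 146.1, 119.6 and 135.7 in wild type. The highest and the lowest samples belonged to different genotypes, and the log2 fold change was 0.06 ± 0.09 (SE, adjusted p = 0.89, limma), with a 95% interval of -0.14 to 0.26. Fgfr2, whose ectodermal form receives Fgf10, gave 241.6, 221.3 and 199.5 units in knockout and 216.0, 226.1 and 200.7 in wild type. Its log2 fold change of 0.03 ± 0.09 (SE, adjusted p = 0.94) had an interval of -0.17 to 0.23. The 2 further Fgfr2 probes and the second probe each of Fgfr1 and Fgfr3 did not reach the filter. Their intensities ran from -8.1 to 26.1 units over all arrays, and at most 2 arrays lay above background for any of them, so no fold is given.

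Fgfr3, a receptor of cartilage that restrains bone growth, was above background on all 6 arrays with its first probe. It gave 70.1, 63.3 and 49.2 units in knockout, against 49.6, 64.1 and 107.6 in wild type. Only wild-type replicate 3 lay above the knockout samples, and the other wild-type values fell within their range. The log2 fold change was -0.12 ± 0.13 (SE, adjusted p = 0.84, limma), with an interval of -0.39 to 0.16, and without wild-type replicate 3 it was 0.04. Wild-type replicate 3 also had the highest summed cartilage markers, at 4389 units, where the other wild-type samples had 2883 and 2881. The cartilage regulator Sox9 gave 292.6, 295.4 and 151.0 units in knockout and 298.0, 286.5 and 394.5 in wild type. The 2 genes thus shared their highest sample, wild-type replicate 3. Both were lowest in knockout replicate 3, but for Fgfr3 this was nearly a tie with wild-type replicate 1 (49.2 against 49.6 units). In those 2 samples Sox9 stood at 151.0 and 298.0 units. Of the other cartilage markers tested, Col2a1, Matn1 and Matn4 were also highest in wild-type replicate 3. Col9a1 and Acan were highest in knockout replicate 2 (50.1 and 31.5 units), and Comp in knockout replicate 3 (26.5 units). A link of Fgfr3 to Sox9 or to the other cartilage markers was not tested.

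Sprouty proteins and Dusp6 are feedback inhibitors, acting upstream of and on the ERK kinases. Both Spry1 probes and the single Spry2 probe lay below background on all 6 arrays, between -12.8 and 12.4 units, so these genes could not be compared. Spry4 gave 69.4, 107.5 and 98.8 units in knockout and 101.5, 89.2 and 100.9 in wild type. Knockout replicate 1 was the lowest sample and knockout replicate 2 the highest. The log2 fold change was -0.05 ± 0.10 (SE, adjusted p = 0.91, limma), with an interval of -0.28 to 0.17.

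Dusp6, the phosphatase that inactivates ERK, gave the lowest fold of the set. Its brightest probe read 2508, 3420 and 2897 units in knockout, against 3166, 3410 and 3341 in wild type. Knockout replicates 1 and 3 lay below all wild-type samples and knockout replicate 2 lay above them. The means were 2942 ± 457 units in knockout and 3306 ± 126 in wild type (SD, n = 3 each), and the log2 fold change was -0.17 ± 0.11 (SE, adjusted p = 0.71, limma), with an interval of -0.41 to 0.06. Leaving out knockout replicate 1 gave a fold of -0.068, and leaving out knockout replicate 2 gave -0.29 (unadjusted p = 0.014, adjusted p = 0.25, limma). Without knockout replicate 2, 1938 of the 13715 probes tested had an unadjusted p under 0.05. The other 2 Dusp6 probes gave folds closer to 0. The second read 119.5, 173.0 and 165.0 units in knockout and 125.8, 168.3 and 173.8 in wild type (log2 fold change -0.02 ± 0.12 SE), and the third read 37.8, 86.1 and 37.1 in knockout and 58.0, 40.9 and 63.0 in wild type (-0.02 ± 0.13 SE). The mean over all 3 probes gave -0.073. For both of these the genotypes overlapped.

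Etv4 and Etv5 are ETS transcription factors of the Pea3 group, induced by FGF in limb mesenchyme. Etv4 gave 275.8, 452.4 and 629.3 units in knockout and 328.5, 408.6 and 343.2 in wild type. Knockout samples held both the lowest and the highest value of the 6. The means were 453 ± 177 units in knockout and 360 ± 43 in wild type (SD, n = 3 each), and the log2 fold change was 0.23 ± 0.19 (SE, adjusted p = 0.77, limma), with the widest interval of the set, -0.17 to 0.62. Without knockout replicate 1 it was 0.49, and without knockout replicate 3 it was -0.01. Etv5 gave 110.4, 178.3 and 182.2 units in knockout and 159.5, 174.3 and 146.1 in wild type. Again knockout replicate 1 was the lowest sample and knockout replicate 3 the highest (log2 fold change -0.03 ± 0.12 SE, adjusted p = 0.96, interval -0.30 to 0.23).

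**Figure D2:**
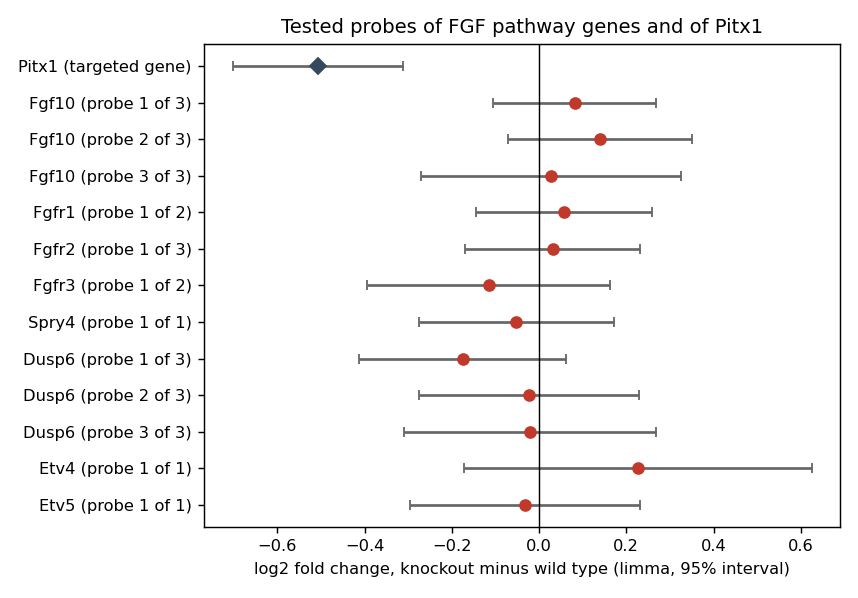
Log2 fold changes (knockout minus wild type, limma) of the 12 tested probes of FGF genes (circles) and of the Pitx1 probe (diamond), with 95% intervals as bars. All 12 FGF intervals cover 0, while that of Pitx1 runs from -0.70 to -0.31.

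Knockout replicate 1 had the lowest value of all 6 samples for Spry4, Etv4, Etv5 and the brightest Dusp6 probe. Relative to the wild-type mean on the log2 scale, it lay at -0.26 for Spry4, -0.39 for Dusp6, -0.31 for Etv4 and -0.34 for Etv5. Knockout replicate 2 lay at 0.09, 0.05, 0.28 and 0.11 for the same genes. The range over knockout samples was therefore wider than the difference between the genotype means for each of these genes. The SD within genotypes on the log2 scale ran from 0.05 for Fgf10 to 0.37 for Etv4 among the 8 genes.

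Fgf8, the main ligand of the apical ectodermal ridge, was set beside these genes after its values were seen. It gave 171.9, 417.3 and 597.5 units in knockout, against 226.1, 439.1 and 256.7 in wild type (log2 fold change 0.22 ± 0.28 SE, adjusted p = 0.86, limma). The order of samples was the same for Fgf8 and Etv4 within each genotype, with knockout replicate 1 lowest and 3 highest, and wild-type replicate 1 lowest and 2 highest. Over the 6 samples, the log2 levels of Fgf8 and Etv4 had a Pearson r of 0.96 (exact two-sided permutation p = 0.0083) and a Spearman rho of 0.94 (exact permutation p = 0.017). For Fgf8 and Etv5, r was 0.87 (exact permutation p = 0.017) and rho 0.89 (exact permutation p = 0.033). Fgf8 was compared with all 8 tested genes, and after adjustment over these 8 relations neither pair passed (adjusted exact permutation p = 0.067 for r and 0.13 for rho, in both pairs). The adjustment does not cover the choice of Fgf8 itself. The share of all genes tested that reach such an r with Fgf8 is not given here, so these values do not mark the Etv genes out. Without the 2 samples farthest from the Fgf8 median, knockout replicates 1 and 3, r over the remaining 4 samples was 0.94 for Etv4, 0.87 for Dusp6, 0.84 for Etv5, 0.72 for Fgfr2, 0.46 for Fgf10, -0.15 for Fgfr3, -0.29 for Spry4 and -0.89 for Fgfr1. Values this high or low on 4 samples were thus not limited to the Etv genes. Over all 6 samples, r with Fgf8 for Dusp6 and Spry4 was 0.39 and 0.49 (exact permutation p = 0.44 and 0.33). For Fgf10, Fgfr1, Fgfr2 and Fgfr3 it lay between -0.47 and 0.11. No slide or scan date was at hand to split the samples by, and each genotype alone has too few samples for a correlation.

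The ectoderm marker Krt14, a basal keratin, gave 7718, 7143 and 7737 units in knockout and 9140, 9551 and 5975 in wild type, an order other than that of Fgf8. Dlx3, another ectodermal gene, gave 228.2, 242.8 and 336.8 units in knockout and 237.9, 304.2 and 182.2 in wild type. The highest Dlx3 sample was that of Fgf8, knockout replicate 3, and its lowest was wild-type replicate 3. Cdh1 and Krt5 were also highest in knockout replicate 3. Sp8, Trp63 and Krt14 were highest in wild-type replicate 2, and Krt15 in wild-type replicate 1. Cdh1 gave 72.1, 99.8 and 101.9 units in knockout and 84.5, 98.5 and 59.7 in wild type. Whether Fgf8 follows the amount of ectoderm was not tested.

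**Figure D3:**
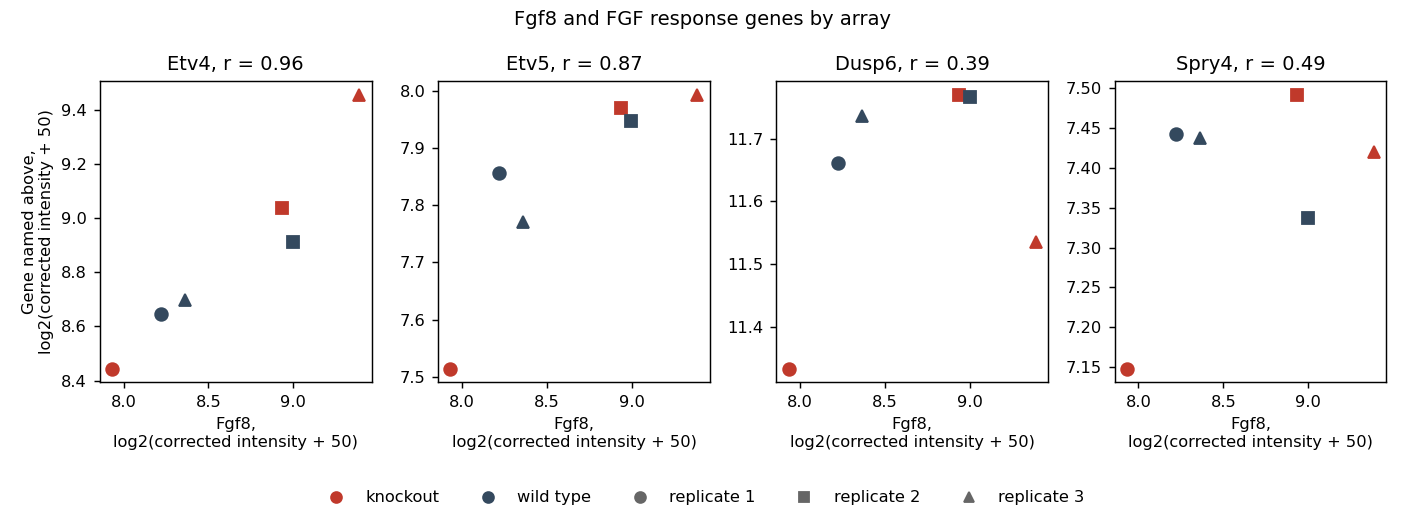
Log2 level of Etv4, Etv5, Dusp6 and Spry4 (vertical axes) against that of Fgf8 (horizontal axes) in the 3 knockout and the 3 wild-type samples, with symbols for replicate numbers and r for Pearson's correlation. The r is 0.96 for Etv4, 0.87 for Etv5, 0.39 for Dusp6 and 0.49 for Spry4, and knockout replicate 1 is lowest in all 4 panels. The differences between these r values were not tested.

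Promoters are shown for the ligand, for the feedback phosphatase Dusp6 and for 1 Pea3 factor, since Pitx1 binds bicoid-type sites and the Etv factors bind ETS sites. They are the 250 bases before the gene start in RefSeq (build GRCm38.p6), which held 7 of the 10 genes with 9 starts. Capitals mark GGAA, the core of ETS sites, on either strand, and each sequence runs 5′ to 3′ along the gene's strand. Fgf10 lies at chr13:118714449-118714698 (plus strand), Dusp6 at chr10:99262981-99263230 (plus strand), the upstream start of Etv5 at chr16:22439571-22439820 and its downstream start at chr16:22438369-22438618 (both minus strand).
Fgf10: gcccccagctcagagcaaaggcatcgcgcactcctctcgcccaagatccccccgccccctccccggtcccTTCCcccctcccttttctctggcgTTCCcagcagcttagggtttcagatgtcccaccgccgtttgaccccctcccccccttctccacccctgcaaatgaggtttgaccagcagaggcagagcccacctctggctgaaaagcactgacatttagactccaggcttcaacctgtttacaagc
Dusp6: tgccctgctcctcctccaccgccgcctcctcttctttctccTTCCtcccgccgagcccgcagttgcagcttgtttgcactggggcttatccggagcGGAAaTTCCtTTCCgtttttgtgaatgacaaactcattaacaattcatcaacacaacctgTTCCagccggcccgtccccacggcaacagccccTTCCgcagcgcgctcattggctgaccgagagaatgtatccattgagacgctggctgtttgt
Etv5, upstream start: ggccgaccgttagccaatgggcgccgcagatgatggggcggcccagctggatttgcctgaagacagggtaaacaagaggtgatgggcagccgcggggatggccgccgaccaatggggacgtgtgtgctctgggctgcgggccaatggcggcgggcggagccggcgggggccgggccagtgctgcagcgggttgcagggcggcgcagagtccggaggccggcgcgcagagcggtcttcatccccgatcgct
Etv5, downstream start: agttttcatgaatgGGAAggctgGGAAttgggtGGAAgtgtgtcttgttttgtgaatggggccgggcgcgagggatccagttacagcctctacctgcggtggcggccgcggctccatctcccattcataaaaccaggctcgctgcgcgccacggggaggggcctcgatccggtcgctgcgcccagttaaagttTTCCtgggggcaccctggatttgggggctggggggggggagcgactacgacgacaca
The core GGAA occurred 6 times before Dusp6, 2 times before Fgf10, 4 times before the downstream start of Etv5 and 0 times before its upstream start. At least 1 such core was found in 8 of the 9 windows of the set and in 93.45% of all 32851 windows of this length. The longer ETS site CCGGAAGT was in 0 of the 9 and in 2.88% of all windows. The bicoid-type site TAATCC, searched on both strands, was in 0 of the 9 and in 6.25% of all windows. These matches describe the letters of these windows only. The table used has no entry for Fgfr1, Spry4 and Etv4.

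Further genes of the pathway were taken from a list of 83, of which 71 had a probe and 44 were tested. None of the 44 passed over all probes by limma (0.273% of all genes tested did), while 5 had an unadjusted p under 0.05, or 11.4% against 8.5% of all genes tested. A fold below 0 was seen for 34 of the 44 and a fold above 0 for 10, with a median of -0.09, while 49.8% of all genes tested lay above 0. Set against the wild-type mean on the log2 scale, the median of the 44 stood at -0.05, -0.06 and -0.16 in knockout replicates 1 to 3, and at 0.02, -0.04 and 0.02 in wild-type replicates 1 to 3. Without knockout replicate 3, 33 genes had a fold below 0 and the median was -0.06. In that limma fit, 1 of the 44 had an unadjusted p under 0.05, as did 683 of the 13715 probes tested. Leaving out knockout replicate 1 or 2 gave 11 or 14 of the 44 (1442 or 1938 probes). Leaving out wild-type replicate 1, 2 or 3 gave 2, 4 or 3 (718, 913 or 710 probes). The count of 5 thus depended on which arrays were kept.

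Among the 21 other ligands, 8 were tested. The smallest p-values belonged to Fgf7, a mesenchymal ligand of the ectodermal Fgfr2 form (log2 fold change -0.17 ± 0.11 SE), to Fgf23, a hormone of phosphate balance (-0.13 ± 0.09), and to Fgf13, an intracellular relative of the family (-0.16 ± 0.12), with limma adjusted p of 0.72 to 0.75. Fgf4, a ridge ligand, and Fgfr4, a receptor of muscle progenitors, both named after their values were seen, lay below background on all 6 arrays.

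Coreceptors and heparan sulfate enzymes gave 12 tested genes, 10 of them with a fold below 0. Sdc3, a syndecan that carries heparan sulfate, read 852.6, 762.7 and 612.0 units in knockout, against 1075.2, 830.1 and 992.0 in wild type. Only knockout replicate 1 lay above the lowest wild-type sample (log2 fold change -0.35 ± 0.12 SE, adjusted p = 0.45, limma). Ext2, an enzyme that builds heparan sulfate chains, gave -0.25 ± 0.12 (adjusted p = 0.62), and Hs2st1, which adds sulfate to them, gave -0.19 ± 0.11 (adjusted p = 0.67).

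Of 8 adaptors and kinases tested, 7 had a fold below 0 and 3 had no overlap between genotypes, each with knockout below. Over the wider list, 5 of the 44 tested genes had no overlap, all with knockout below, Fgf23 and Etv1 among them. Of all 9535 genes tested, 698 had no overlap with knockout below, and 13.8% had no overlap in either direction. Ptpn11, the phosphatase Shp2 that passes receptor signals on to Ras, read 4824, 4899 and 3219 units in knockout and 5635, 5003 and 5717 in wild type. Knockout replicate 3 was the lowest sample, and the log2 fold change was -0.36 ± 0.14 (SE, adjusted p = 0.54, limma). Gab1, a docking protein, read 2039, 1928 and 1557 units in knockout and 2220, 2154 and 2313 in wild type (-0.27 ± 0.11 SE, adjusted p = 0.53). Map2k2, the kinase MEK2, gave -0.20 ± 0.09 (adjusted p = 0.62).

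The further genes listed under inhibitors, where Flrt2 and Flrt3 were placed without a claim that they inhibit, gave 9 tested genes with folds from -0.30 to 0.20. Dusp7, a phosphatase related to Dusp6, gave 0.20 ± 0.10 (SE, adjusted p = 0.63, limma), Spred1, an inhibitor of Ras signalling, gave -0.24 ± 0.12 (adjusted p = 0.64), and Flrt2, a membrane protein of the FLRT family, gave -0.30 ± 0.16 (adjusted p = 0.66). Il17rd, also known as Sef, a membrane inhibitor of FGF receptors, gave -0.05 ± 0.09 and was named after its values were seen. Among response factors, Etv1, the third member of the Pea3 group, had the smallest p of the whole list. It read 102.6, 108.4 and 75.3 units in knockout, against 125.9, 141.4 and 133.8 in wild type. All knockout samples lay below all wild-type samples, as they did for 698 of all 9535 genes tested. The log2 fold change was -0.30 ± 0.10 (SE, unadjusted p = 0.0094, adjusted p = 0.42, limma). Egr1, an immediate early gene, gave -0.33 ± 0.16 (adjusted p = 0.62) and Ccnd1, the cyclin D1 gene, -0.08 ± 0.09 (adjusted p = 0.86).

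**Figure D4:**
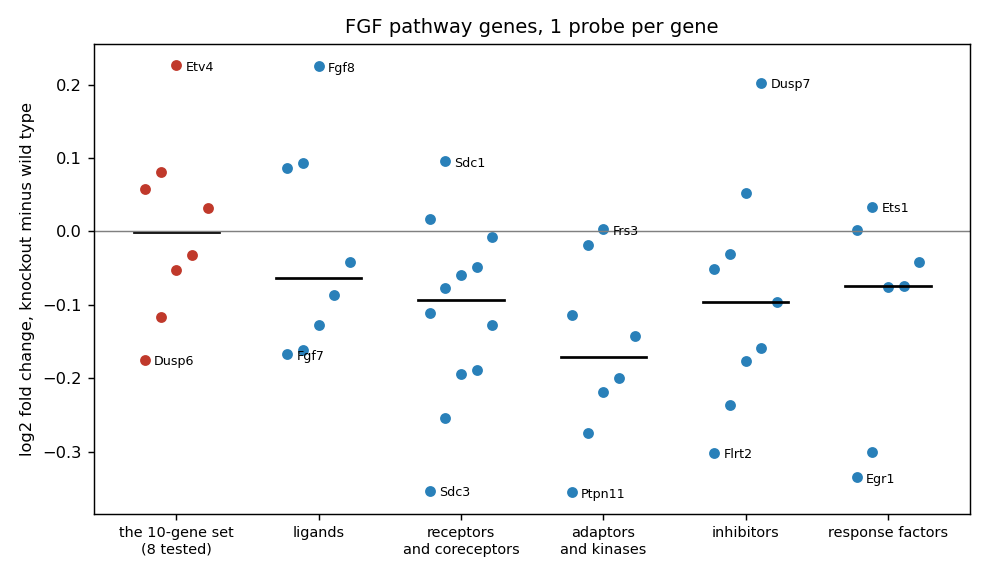
Log2 fold changes (knockout minus wild type) of the 8 testable genes of the set (red) and of the 44 further pathway genes by class (blue), 1 point per gene with the class median as a bar and the extreme genes named. The set lies on both sides of 0, and the further genes have a median of -0.09, with no gene past the threshold.

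The genes whose levels across the 6 samples were most like those of Dusp6, by Pearson correlation over all tested genes outside the set, were Ppp2r2d (r = 0.999), Srsf6 (0.994) and Ttf2 (0.980). For Fgf10 they were Efr3a (0.993), Strap (0.992) and Mt2 (0.987). With 9535 genes searched over 6 samples, these values are a description and carry no test.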

How the data were processed

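Gene expression was compared in hindlimb buds of 3 knockout and 3 wild-type samples. RNA was isolated with Trizol and turned into biotinylated cRNA for Illumina bead arrays, per the labels' protocols. The deposited table holds linear intensities, of which 27.9% lie below 0. The sorted columns differ by at most 1.09 units, as quantile normalization would leave them. Scanner software, background method and normalization are not given in the sources used here. A second table has 12 value columns with running numbers in place of sample names and was not used.

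The background correction was normexp with an offset of 50, followed by log2, in limma 3.58.1 under R 4.3.3. Background came from the values below 0 (root mean square 8.71 units, threshold 14.3). Probes above it on at least 3 arrays were tested with lmFit and eBayes (genotype alone in the model, two-sided, 9.6 prior degrees of freedom), with Benjamini-Hochberg adjustment over 13715 probes at 0.05. The fit was tested on simulated data. Depth has no counterpart here, and the number of arrays limits the precision. A two-sided exact permutation test of 3 against 3 cannot go below 0.1, so none was run for single genes.

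Gene names are those of the platform annotation in GEO, brought to GRCm38.p6 symbols by Entrez identifier (23962 of 25697 probes matched). The brightest probe over all 6 arrays stood for a gene. Cross-hybridisation between related genes was not examined. Named genes are the 10 of the set, Pitx1, up to 3 further pathway genes per class with the smallest p and any past the threshold, and the genes most like Dusp6 and Fgf10. Others are said to be named after their values were seen or are markers. The members, lists and settings were chosen with earlier results of these data known. Correlations used SciPy 1.17.1 and figures matplotlib 3.10.9. Alternatives covered the background step, offset, normalization between arrays, filter, replicate block, variance model, array weights, the mean over a gene's probes, and leaving out each array.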

Additional observations from a re-analysis of the deposited data

How the results depend on the processing

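Over all probes tested, 30 passed in limma. The count was 8 with a normexp offset of 16 and 84 with the replicate number as a block, and it ran from 0 to 91 as single arrays were left out. It was 91 and 48 without knockout replicates 1 and 2, while leaving out wild-type replicate 1, 2 or 3 gave 3, 4 or 0 (unadjusted p under 0.05 for 718, 913 or 710 probes). Same-numbered deviations correlated at 0.23, 0.17 and -0.07. Deviations with different numbers were not compared, so whether replicate numbers pair the samples cannot be told from these values. No member probe and no gene of the wider list passed under any alternative. The lowest adjusted p of a member was 0.18, for Etv4 without knockout replicate 1. The number of wider pathway genes with a fold below 0, added after seeing the data, was 30 (of 39 tested) to 36. Fgf10, Fgfr1 and Dusp6 kept their direction under all 16 alternatives, with folds of 0.049 to 0.11, 0.0069 to 0.0999 and -0.29 to -0.068. In limma, Dusp6 had an unadjusted p under 0.05 without knockout replicate 2 (0.014) and with array weights (0.025, fold -0.25). So did Etv4 without knockout replicate 1 (0.0029). Of the 13715 probes tested, 1938, 1138 and 1442 had an unadjusted p under 0.05 in these fits, in the same order. Folds of the other 5 genes changed sign only when an array was left out, and over those fits ran from -0.019 to 0.085 for Fgfr2, -0.24 to 0.0445 for Fgfr3, -0.12 to 0.050 for Spry4, -0.012 to 0.49 for Etv4 and -0.12 to 0.12 for Etv5. With array weights the fold was 0.0059 for Etv4 and -0.16 for Etv5. The cause was not tested.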
